A study of Homo sapiens with 2 samples.

Results

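The genes examined here encode the proteins that license replication origins, unwind DNA and build the replication fork. They were chosen by name, as 46 listed genes of the origin recognition complex (ORC), the MCM2-7 helicase and its loading, activating and inhibiting factors, the replicative polymerases, the clamp and its loader, the single-strand binding protein RPA and the fork protection proteins. All 46 had a row among the 57736 genes of the deposited tables, through their Ensembl identifiers and the GENCODE annotation of GRCh37. Poly(A)+ RNA from HEK293T cells was sequenced with 50-base reads, which gave 1 group of 2 replicates. HEK293T is a human line of embryonic kidney origin that expresses large T antigen of SV40. The cells were labelled wild type, received no treatment, and were grown to 80% confluency in DMEM with 10% FBS, under 5% CO2 and at 37 °C. The labels do not say whether the replicates came from separate cultures, so the spread between them may be technical. No second condition was present, and the comparisons below were made between subunits, between gene lists and between the libraries of a single cell line.

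Replication of DNA is prepared in the G1 phase, when ORC, CDC6 and CDT1 load the ring-shaped MCM2-7 helicase on origins as an inactive double ring. In S phase, the kinase CDC7 with its activator DBF4 and the cyclin-dependent kinases turn the loaded rings into active helicases, each of which holds CDC45 and the GINS complex. DNA polymerase alpha with primase starts each new strand, polymerases epsilon and delta extend it, and RPA covers the single-stranded DNA that is left exposed. Geminin, the product of GMNN, binds CDT1 and prevents a second round of loading. Genes of this group are known for joint control by E2F transcription factors, and cycling cells of most tissues express them.

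The libraries held 10593491 and 10104118 estimated counts, and the floor set by 3 counts was 0.283 and 0.297 CPM (counts scaled to the library total). Such floors cover counting error only, because amplified reads are not independent molecules. TPM (a share of transcripts, scaled by transcript length) was used for levels of genes, and a gene was called detected at 1 TPM or more in each library. Markers of other cell types were low. Of 12 kidney epithelium markers 2 were detected (PAX2 with TPM of 4.34 and 2.47, and LRP2 with 8.28 and 9.96), 5 were at 0 in both libraries, and the list summed to 13.2 and 13.7. Of the leukocyte markers, CD3E was at 0 in both libraries and PTPRC had a TPM of 0.22 and 0.11. Of 3 fibroblast markers 1 was detected, COL1A1, with a summed TPM of 11.4 and 9.24 for the list. Neither of the 2 endothelium markers with a row was detected. Most defining markers of the labelled tissue, kidney, were thus below detection. All 4 proliferation markers were detected, with TPM of 97.2 and 98.8 for MKI67.

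All 46 replication genes were detected, whereas 63.7% of 19391 protein-coding genes were. Their TPM values summed to 4338 and 4309, or 0.434% and 0.431% of the total. The median of their mean TPM was 69.0 and that of the 12345 detected protein-coding genes was 21.2. On the log2(TPM + 1) scale the difference of these medians was 1.65 for the mean TPM, and 1.69 and 1.67 for replicates 1 and 2 alone. Of the 46 genes 45 lay above the median of detected protein-coding genes, 34 at or above their 75th percentile and 13 at or above their 90th. PRIM2 was the single gene below that median. The counts per gene and library ranged from 210.0 for POLE2 to 5738 for MCM4, so every gene was measured well above the floor.

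**Figure D1:**
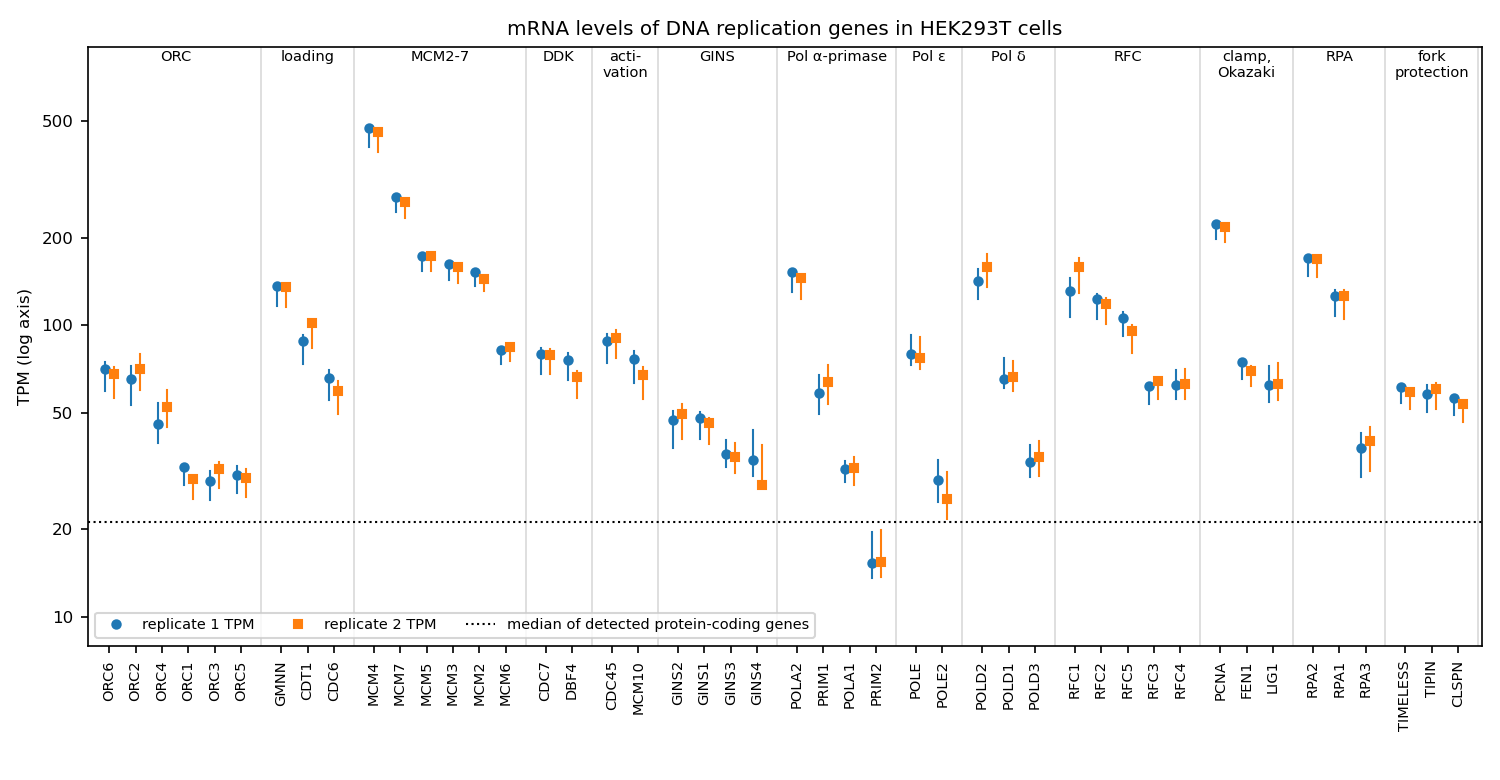
TPM (log axis) of each replication gene in replicate 1 (circles) and replicate 2 (squares), grouped by complex, with the deposited 95% credibility intervals as vertical lines and the median of detected protein-coding genes as a dotted line at 21.2. Levels ran from 15.4 for PRIM2 to 466 for MCM4, and points of the 2 replicates lay close to each other for most genes.

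Sequence upstream of the genes was examined for letters that their common regulators recognise. RefSeq promoter sequences were matched for 40 of the 46 genes and were not matched for MCM4, MCM5, GINS4, POLD3, RPA2 and RPA3. An E2F motif (TTTCGCGC or TTTGGCGC, on either strand) was found within 250 bases before the start of 7 of these 40 genes, or 17.5%, and in 0.968% of all 35116 promoters of the table. Among 10020 detected protein-coding genes with a promoter the share was 2.14%. The 7 genes are the helicase subunits MCM6 and MCM7, the loading inhibitor GMNN, the polymerase subunits POLA1, POLA2 and POLE, and the fork protection gene TIPIN. Their motifs are printed here because they are the sequence that the 7 genes share. Capitals mark the E2F motif, each line is read 5′ to 3′ on the strand of the gene, and positions are those of GRCh37.
MCM6, chr2:136634147-136634176, minus strand: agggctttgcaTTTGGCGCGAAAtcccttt
MCM7, chr7:99699021-99699040, minus strand: ggggggcgacgTTTCGCGCc
GMNN, chr6:24775550-24775579, plus strand: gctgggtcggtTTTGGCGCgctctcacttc
POLA1, chrX:24711887-24711916, plus strand: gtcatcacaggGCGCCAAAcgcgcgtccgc
POLA2, chr11:65029369-65029398, plus strand: ttggctcccggTTTCGCGCatgcgtgcact
POLE, chr12:133263929-133263957, minus strand: tgggtgggagcGCGCCAAAtttctcccct
TIPIN, chr15:66649071-66649100, minus strand: ccccgcacggaTTTGGCGCCAAAcgctgcg
In MCM6 and TIPIN the capitals hold a pair of overlapping motifs on opposite strands, and MCM6 had 4 motifs in all, the first 152 bases before the start. In POLA1 and POLE the motif was read on the strand opposite to the gene, 137 and 18 bases before the start. MCM7 has 3 RefSeq promoters in the table, 1 of which held the motif, 9 bases before its start and sharing 1 base with a CCAAT box. GMNN and TIPIN also have more than 1 promoter, with the E2F motif in 1 of them. The MCM7, POLA2 and POLE stretches overlapped annotated exons of these same genes in GRCh37, and the other stretches overlapped no exon. Those of GMNN and TIPIN lay inside the annotated bounds of their gene.

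The CCAAT box, a site of NF-Y, was found in 24 of the 40 promoters (60%) and in 32.0% of all promoters, with 42.3% among detected protein-coding genes. The GC box GGGCGG, a site of SP1, was found in 31 of the 40 (77.5%), in 42.6% of all promoters and in 76.5% of detected protein-coding genes. TTTGAA, the core letters of the CHR element of genes expressed in G2 and mitosis, was found in 0 of the 40, in 13.3% of all promoters and in 11.8% of detected protein-coding genes. Both strands were read for each motif, and a match is a description of letters, not of binding. A gene was counted when any of its promoters held the motif, and over all 27305 genes of the table the shares were 1.20% for E2F, 37.0% for CCAAT, 46.2% for the GC box and 16.1% for TTTGAA. When the 50 bases after the start were added, the E2F motif was present in 12 of the 40 promoters, which then included MCM2, MCM3, CDC6, GINS1 and POLE2, and in 1.15% of all promoters. Without the first T, the motif was present within the 250 bases in 9 of the 40 (22.5%), in 4.24% of all promoters and in 9.14% of detected protein-coding genes.

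**Figure D2:**
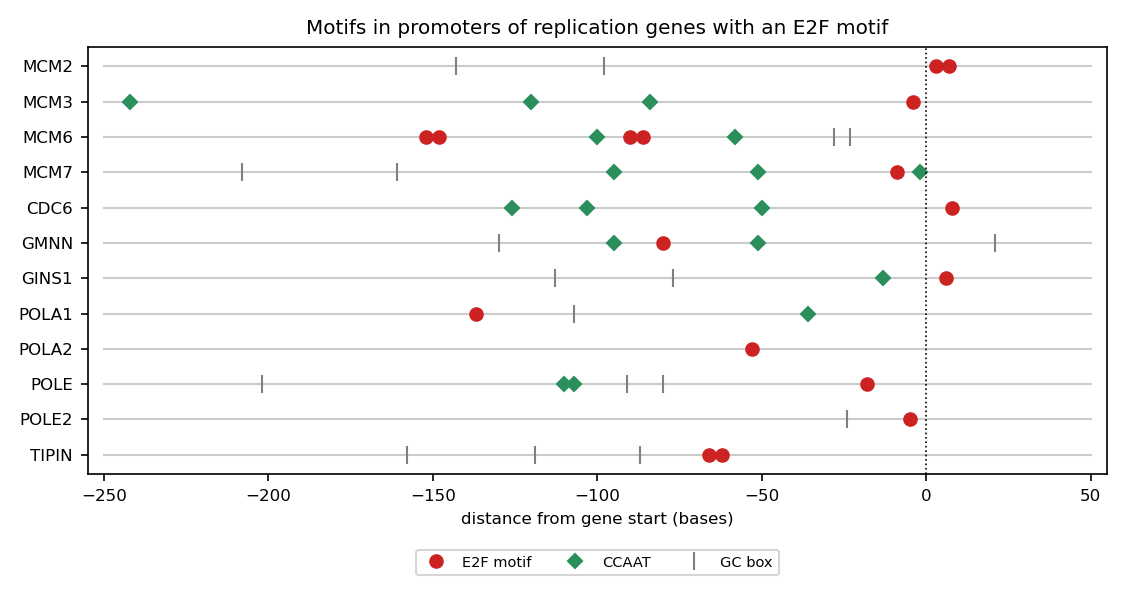
Distance from the gene start (bases, horizontal axis) of E2F motifs (circles), CCAAT boxes (diamonds) and GC boxes (vertical ticks) in the 12 promoters that held an E2F motif between 250 bases before and 50 bases after the start. MCM6 had the most E2F motifs, 4, and in MCM2, CDC6 and GINS1 they lay after the start.

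Among the subunits of ORC, which marks origins and recruits the loading factors, ORC6 and ORC2 had the highest levels and ORC1, ORC3 and ORC5 the lowest. ORC6, the smallest subunit, had a TPM of 70.9 and 68.2 in replicates 1 and 2. ORC2, which forms part of the ORC core, had 65.7 and 71.0. ORC4, an ATPase-fold subunit, was intermediate with 46.1 and 52.7. The last 3 subunits lay close together at about the same level. ORC1, the ATPase that binds CDC6 and is degraded in many cells after G1, had a TPM of 32.8 and 29.7, ORC3 had 29.3 and 32.2, and ORC5 had 30.8 and 30.0. ORC6 exceeded ORC5 2.29-fold, or 1.20 ± 0.01 on the log2 TPM scale (SD, n = 2). In counts per kb of canonical transcript the same ratio was 1.58-fold. Of the 5 neighbouring pairs in the TPM order, ORC4 and ORC1 alone had separate 95% credibility intervals of TPM in both libraries.

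CDC6 and CDT1, the factors that bring the helicase to ORC, and GMNN, the inhibitor of CDT1, had TPM values above those of most ORC subunits. CDC6 had 66.2 and 59.5, a mean of 62.9 ± 4.72 (SD, n = 2). CDT1 had 88.2 and 102 and was higher in replicate 2. GMNN had 136 in both libraries and exceeded CDT1, with no overlap of the replicates. The log2 ratio of CDT1 to GMNN was -0.52 ± 0.15 by TPM (SD, n = 2). In estimated counts, which are not scaled by length, the same log2 ratio was 0.67, and in counts per kb of canonical transcript it was -0.41, so GMNN was higher on both scales that use length. The place of CDC6 depended on the scale. In counts per kb of canonical transcript it had 197, below every ORC subunit except ORC4 with 78.3. CDT1 with 536 and GMNN with 711 stayed above ORC6, the highest of ORC with 333.

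Subunits of the MCM2-7 helicase, a ring with 1 copy of each of 6 related ATPases, included the highest mRNAs by TPM of the genes examined, MCM4 and MCM7. MCM4 led all 46 genes with a TPM of 474 and 459, a mean of 466 ± 10.9 (SD, n = 2), which is the 98.5 percentile of detected protein-coding genes. MCM7 followed with 276 and 264. MCM5 had 172 and 173, MCM3 had 162 and 159, and MCM2 had 152 and 144. These 3 subunits were near each other, and neighbours among them had overlapping intervals. MCM6, whose promoter held 4 E2F motifs, was the lowest with 82.5 and 84.4. The ratio of MCM4 to MCM6 was 5.59-fold, or 2.48 ± 0.06 on the log2 TPM scale (SD, n = 2). The steps from MCM4 to MCM7, from MCM7 to MCM5 and from MCM2 to MCM6 had separate intervals in both libraries.

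The size of the MCM4 value rested on the length assigned to its transcripts. TPM divides the reads of a gene by a length weighted over its transcripts, and this length was 1662 nt for MCM4, or 40.9% of the 4062 nt of its canonical transcript. That canonical transcript was not among the quantified transcripts of MCM4. For MCM6 it was 99.0%, and for MCM7 it was 89.3%. When estimated counts were instead divided by the canonical length, an alternative chosen after the data were seen, MCM7 was the highest with 1729.9 ± 107 counts per kb (SD, n = 2) and MCM4 had 1357 ± 79.0. MCM3 then had 1039 counts per kb, MCM2 had 975, MCM5 had 666 and MCM6 had 597. MCM6 stayed the lowest subunit on this scale, and the ratio of MCM7 to MCM6 was 2.90-fold. In both libraries MCM6 lay below every other subunit by TPM.

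Kinase and helicase-activating genes had levels near the median of the group. CDC7, the catalytic subunit of the DDK kinase that phosphorylates the MCM ring, had a TPM of 79.7 and 79.5. Its activator DBF4 had 76.2 and 66.7, and the log2 TPM ratio of CDC7 to DBF4 was 0.16 ± 0.13 (SD, n = 2). In counts per kb of canonical transcript CDC7 exceeded DBF4 1.96-fold. The TPM intervals of the kinase and its activator overlapped in both libraries. CDC45, which joins the active helicase, had 88.1 and 90.9. MCM10, an activator of the assembled helicase that is not part of the ring, had 76.6 and 67.4.

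GINS, a complex of 4 small subunits that is built into the active helicase, was low and even. GINS2 had a TPM of 47.4 and 49.6, GINS1 had 48.1 and 46.2, GINS3 had 36.4 and 35.3, and GINS4 had 34.5 and 28.4. GINS4 had the widest gap between the libraries by TPM, while in scaled counts its log2 ratio of replicate 2 to replicate 1 was -0.06, the smallest of the 4 subunits in size. The ratio of GINS2 to GINS4 was 1.55-fold, or 0.63 ± 0.24 on the log2 TPM scale (SD, n = 2), and no neighbouring pair had separate intervals in both libraries. Every GINS subunit lay below CDC45 in both libraries.

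DNA polymerase alpha with primase, which has 4 subunits, makes the RNA-DNA primers. Among listed subunits it had the largest ratio of highest to lowest TPM of the 10 complexes compared. In counts per kb of canonical transcript RPA had the largest. The ranking does not cover POLD4, an unlisted subunit of polymerase delta, whose TPM of 11.2 and 6.63 was below that of PRIM2. POLA2, the accessory subunit of polymerase alpha, had a TPM of 152 and 145. PRIM1, the catalytic primase subunit, had 58.5 and 63.9. POLA1, the catalytic polymerase subunit, had 32.3 and 32.4, and PRIM2, the large primase subunit, had 15.3 and 15.4. All 3 steps of this order had separate intervals in both libraries. POLA2 exceeded PRIM2 9.66-fold, or 3.27 ± 0.05 on the log2 TPM scale (SD, n = 2). In counts per kb of canonical transcript the same ratio was 2.58-fold, with 349.9 ± 13.6 for POLA2 and 135 ± 5.88 for PRIM2 (SD, n = 2). The weighted length was 1188 nt for POLA2, or 33.5% of its canonical transcript, and 123% of the canonical transcript for PRIM2.

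Single values of the primase genes carry limits from their annotation. PRIM2 (ENSG00000146143) lies on chromosome 6 from 57179603 to 57513376, plus strand, and its canonical transcript was not among those of the deposited tables. Its exons share 640 bases with PRIM2BP, a pseudogene on the same strand that has no row in the tables. PRIM1 shares 139 exonic bases on the same strand with NACA, which had 4923 and 4621 estimated counts against 407 and 398 for PRIM1. Reads from such bases cannot be told apart by position.

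Of the polymerases that extend the strands, epsilon had its catalytic subunit as the highest of its listed subunits, and delta had an accessory subunit. This contrast did not hold with the unlisted subunits, as POLE3 of epsilon had a TPM of 122 and 109, above POLE. Of the other unlisted subunits, POLE4 of epsilon had 43.6 and 39.8, and POLD4 of delta had 11.2 and 6.63. POLE, the catalytic subunit of leading-strand polymerase epsilon, had a TPM of 79.9 and 77.5, and its partner POLE2 had 29.5 and 25.5. The ratio was 2.87-fold, or 1.52 ± 0.12 on the log2 TPM scale (SD, n = 2). In polymerase delta, which makes the lagging strand, the accessory subunit POLD2 was the highest with 142 and 159. POLD1, the catalytic subunit of delta, had 65.6 and 66.3, and POLD3, which links delta to PCNA, had 34.1 and 35.4. POLD2 exceeded POLD3 4.32-fold, or 2.11 ± 0.08 on the log2 TPM scale (SD, n = 2), and 5.29-fold in counts per kb of canonical transcript. The canonical transcript of POLD2 was not among its quantified transcripts. Every neighbouring pair of listed subunits within delta and within epsilon had separate intervals in both libraries.

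PCNA, the sliding clamp that holds the polymerases on DNA, was the third highest of the 46 genes by TPM, with 222 and 218. In counts per kb of canonical transcript it had 1639, above MCM4 with 1357 and below MCM7 with 1729.9. RFC, the 5-subunit loader of the clamp, lay below PCNA in each of its subunits. RFC1, the large subunit, had 132 and 158, which is the widest gap between the libraries within the complex. RFC2 had 123 and 119, RFC5 had 106 and 95.8, RFC3 had 62.2 and 64.4, and RFC4 had 62.6 and 63.0. The step from RFC5 to RFC3 had separate intervals in both libraries, and the other 3 steps did not. RFC1 exceeded RFC4 2.30-fold, or 1.20 ± 0.18 on the log2 TPM scale (SD, n = 2).

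The place of RFC1 depended on the scale of length. Its weighted length was 1502 nt, or 30.8% of its canonical transcript of 4870 nt. In counts per kb of canonical transcript RFC1 was the lowest subunit with 316 ± 15.8, and RFC5 was the highest with 523 ± 52.5 (SD, n = 2), 1.66-fold above RFC1. RFC2 had 522 counts per kb, RFC3 had 441 and RFC4 had 343.

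Genes that finish Okazaki fragments, the short pieces of the lagging strand, were close to the median of the group by TPM. FEN1, the nuclease that removes the flap at the end of a primer, had a TPM of 74.8 and 70.0, and LIG1, the ligase that seals the nick, had 62.5 and 62.9. In counts per kb of canonical transcript they lay further apart, with 580 for FEN1 and 206 for LIG1. RPA, the trimer that covers single-stranded DNA, was uneven. RPA2, its middle subunit, had a TPM of 170.2 and 169, the large subunit RPA1 had 126 in both libraries, and the small subunit RPA3 had 37.98 and 40.2. Both steps had separate intervals in both libraries. RPA2 exceeded RPA3 4.34-fold by TPM, or 2.12 ± 0.06 on the log2 scale (SD, n = 2), and 8.94-fold in counts per kb of canonical transcript.

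Genes that steady the fork had nearly equal levels. TIMELESS, which travels with the helicase, had a TPM of 61.7 and 59.0, its partner TIPIN had 58.2 and 60.7, and CLSPN, the adaptor that passes the checkpoint signal to CHEK1, had 56.3 and 54.0. No neighbouring pair of these genes had separate intervals. The ratio of TIMELESS to CLSPN was 1.09-fold by TPM and 1.95-fold in counts per kb of canonical transcript, on which scale CLSPN had 167, TIPIN had 271 and TIMELESS had 327.

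Across the 10 complexes with at least a pair of listed subunits, the median ratio of the highest to the lowest listed subunit was 2.57-fold by TPM. Taken for the same subunits in counts per kb of canonical transcript, it was 2.11-fold, and for the highest and lowest subunits of that scale itself it was 2.53-fold. The highest subunit was the same gene on both scales in 8 of 10 complexes, and the lowest in 8 of 10. Of 28 neighbouring pairs in the TPM order, 13 had separate intervals in both libraries and 15 did not. The deposited intervals describe read sharing and counting within a library, and they do not include spread between cultures.

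**Figure D3:**
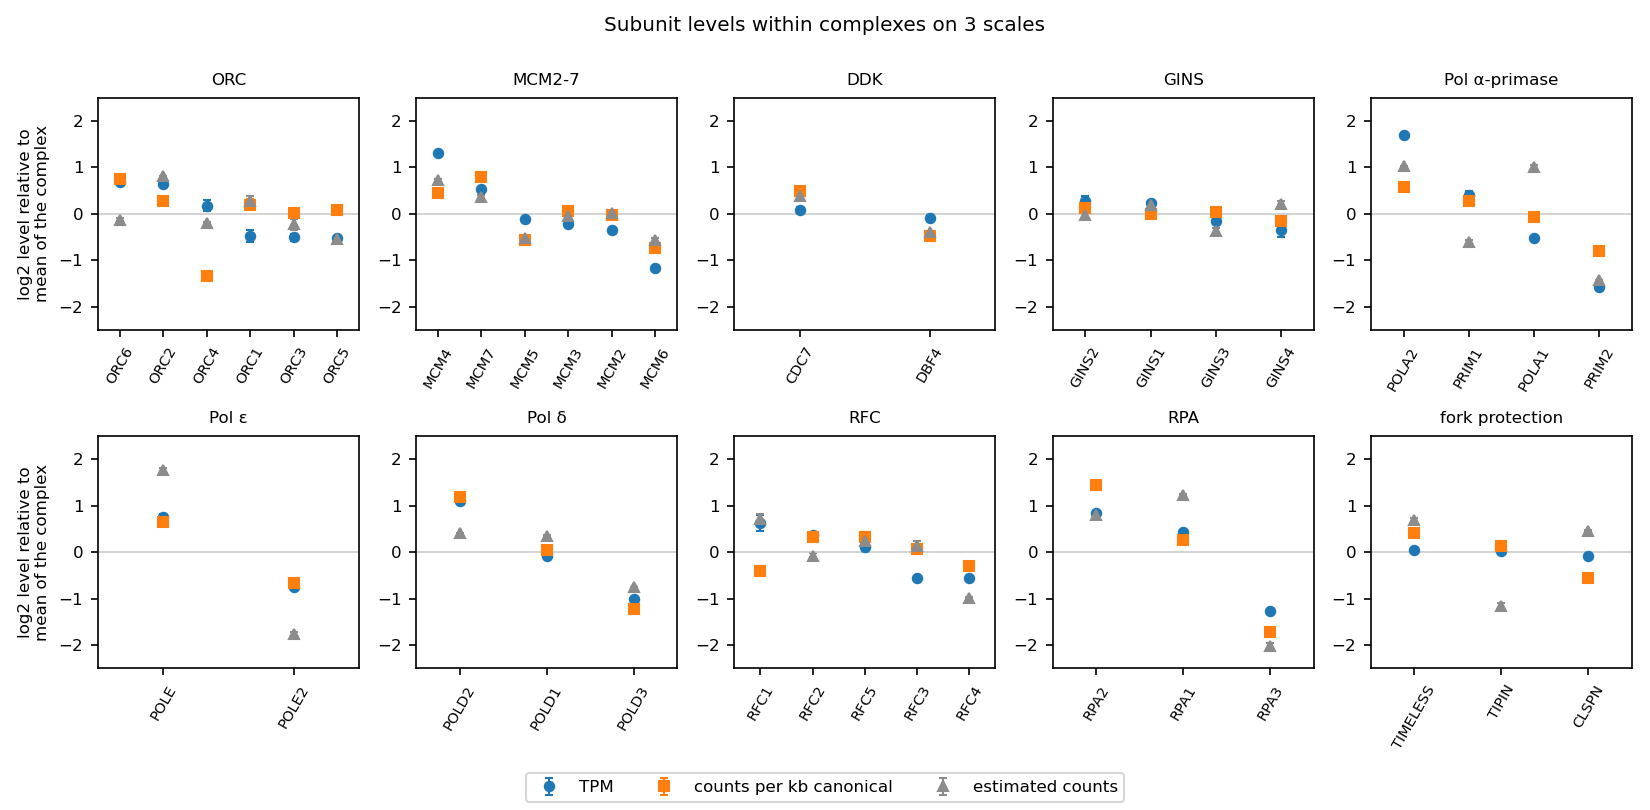
Level of each subunit within its complex, as the log2 difference from the mean of the complex, by TPM (circles), by counts per kb of canonical transcript (squares) and by estimated counts (triangles), as mean and SD of 2 replicates. MCM4, POLA2, ORC4 and RFC1 fell on the scale of canonical length relative to TPM, and RPA and polymerase delta kept their order from RPA2 to RPA3 and from POLD2 to POLD3 on both.

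For many of the genes the length behind the TPM was well short of the canonical transcript. The median over the 46 genes was 72.1%, and 15 genes lay under 60%. For 3 genes, MCM4, POLD2 and PRIM2, the canonical transcript was not among the quantified transcripts. ORC4 had the lowest share, 22.5%, with a weighted length of 1472 nt against 6547 nt, and its level fell from intermediate by TPM to the lowest of ORC in counts per kb of canonical transcript, with 78.3 ± 0.165 (SD, n = 2). ORC6 then exceeded ORC4 4.26-fold. The exons of ORC4 share 431 bases with ACVR2A and 157 bases with MBD5, both on the opposite strand, and the sources used here do not state if strand entered the counting. The use of shorter transcripts and the assignment of reads to them by the authors' software cannot be told apart from gene totals.

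**Figure D4:**
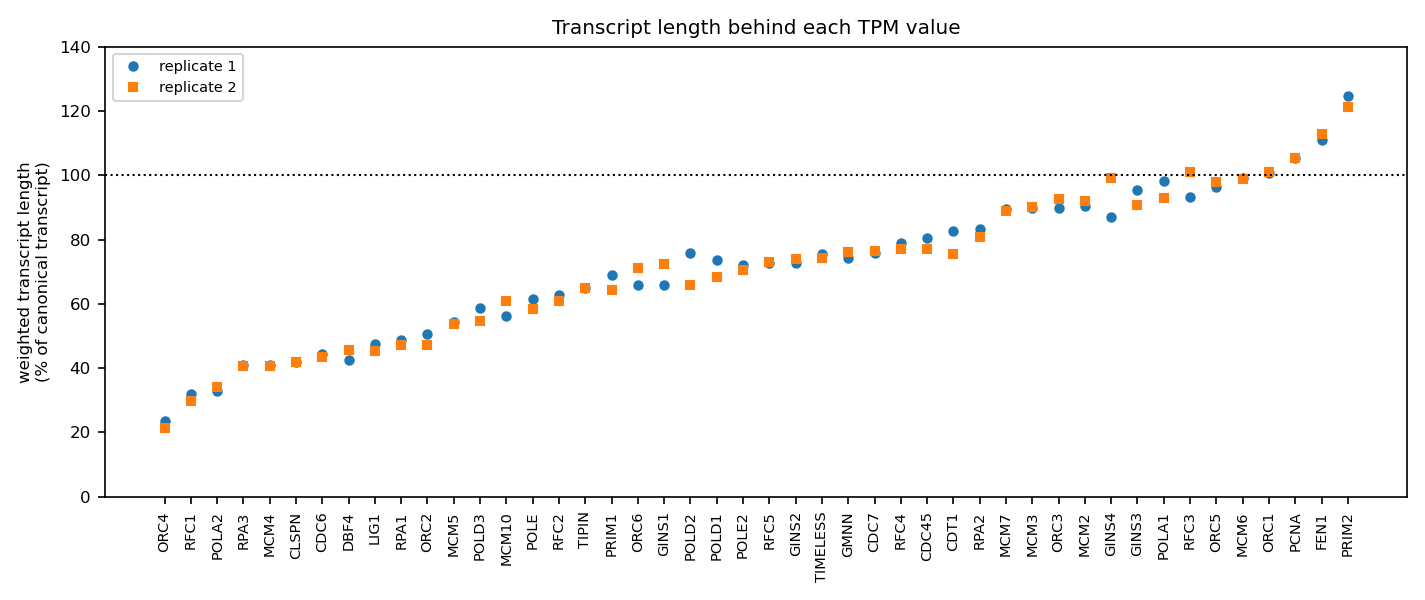
Weighted transcript length of each replication gene as a percentage of its canonical transcript (vertical axis), in replicate 1 (circles) and replicate 2 (squares), ordered by the mean, with 100% as a dotted line. ORC4, RFC1 and POLA2 were the shortest with 22.5%, 30.8% and 33.5%, and PRIM2 was the longest with 123%.

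Other genes of the pathway were also expressed. Of 11 further genes of licensing and origin firing 10 were detected, with a median TPM of 39.8. MCMBP, which binds MCM proteins, was the highest with 75.8 and 82.1, MTBP, a partner in origin firing, was the lowest detected with 12.3 and 12.1, and MCMDC2, an MCM relative of the germ line, was not detected with 0.12 in both. Of 20 further fork and polymerase genes 19 were detected, with a median of 68.0, led by the histone chaperone subunit SSRP1 with 288 and 272. RPA4, a relative of RPA2, was not detected, with 2 and 3 counts. All 10 genes of S-phase control, which includes cyclins and the DTL ubiquitin ligase, were detected with a median of 77.2, from CCNE2 with 15.5 and 16.9 to DDB1 with 180.4 and 162.

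Genes of the fork checkpoint were lower, with a median TPM of 24.95 for 7 of 7 detected. CHEK1, the checkpoint kinase that acts after CLSPN, led them with 49.6 and 44.3, and the kinase ATR was the lowest with 15.9 and 18.0. All 13 genes of E2F factors, their partners and pocket proteins were detected, with a median of 29.6. TFDP1, the partner of E2F factors, was the highest with 75.9 and 69.8, and E2F8, a repressive member, was the lowest with 12.4 and 13.8. These lists share no gene with the 46.

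The libraries were compared to see how far single genes of the group varied between them. This comparison is one of libraries, not of conditions. Counts scaled by TMM (a trimmed-mean library factor) were tested by an exact two-sided binomial test with Benjamini-Hochberg adjustment over 17920 genes. The test called 1 of the 46 genes, RFC1, whereas 696 genes, or 3.88%, were called in all, 384 of them higher in replicate 2 and 312 higher in replicate 1. With another scaling, RLE, the calls numbered 309 and 443. At an unadjusted p under 0.05 there were 6 of the 46 genes and 13.3% of all genes tested. The edgeR exact test used a common dispersion estimated from these same libraries, so the difference under test enters its own spread. It called 0 of the 46 genes and 217 of all genes (1.21%). An unadjusted p under 0.05 in that test was found for 0 of the 46 and for 5.99% of all genes. With whole counts alone, 0 of the 24 replication genes tested and 71 of 8675 genes (0.818%) were called by the exact binomial test, and 4 of the 24 had an unadjusted p under 0.05. The binomial test takes amplified reads as independent molecules, so it covers counting error only.

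RFC1 (ENSG00000035928, chromosome 4 from 39289076 to 39367995, minus strand) had 1482 and 1591 counts. Its log2 ratio of replicate 2 to replicate 1 was 0.18, with an adjusted p of 0.0191 in the exact binomial test. Across 4 alternatives of scaling, test and kind of count, the adjusted p ranged from 0.0323, with scaling by total counts in the exact test, to 0.997 under the edgeR exact test. It was 0.0582 with RLE scaling and 0.0567 over genes with whole counts alone in the exact binomial test, so the call was lost in 3 of these 4. The dispersion of the edgeR test came from these same libraries, so that result is not a separate check of the call. RFC1 stayed called with no minimum count and with a minimum of 100. Genes with larger ratios and fewer counts were not called. POLE2, with 258 and 210.0 counts, had the largest, -0.22, with an adjusted p of 0.529 in the exact binomial test, and ORC3 had 0.21 with 0.238. RFC3, another loader subunit, had 0.19 with an adjusted p of 0.0654 in the same exact test. POLE had a log2 ratio of -0.10 with an adjusted p of 0.161, and with RLE scaling it was called in place of RFC1, with 0.0456 in the exact test. Among the other lists the exact binomial test called MCMBP, with an adjusted p of 0.0482, and TOP2A, with 0.00931, both higher in replicate 2.

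The median absolute log2 ratio of the 46 genes was 0.05, and that of 7547 protein-coding genes with summed counts in the same range was 0.07. After scaling, 17 of the 46 genes were higher in replicate 2, while 51.3% of those protein-coding genes were. RFC1 and CDC6, whose log2 ratio was -0.16, lay outside the 5th to 95th percentiles of protein-coding genes with similar counts, CDC6 just beyond them, and the other genes of the group lay within.

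**Figure D5:**
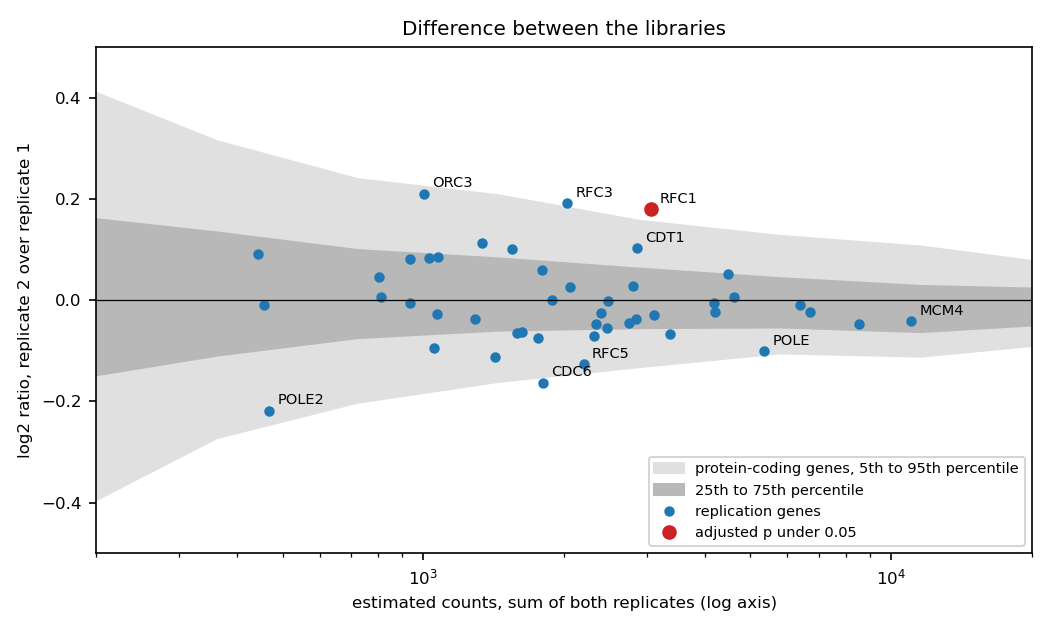
Log2 ratio of replicate 2 to replicate 1 after TMM scaling (vertical axis) against the summed estimated counts (log axis) for the 46 replication genes (points), over the 25th to 75th (dark) and 5th to 95th (light) percentiles of protein-coding genes with similar counts. RFC1, at 0.18, was called by the exact binomial test (large point), and most of the genes lay within 0.1 of 0.

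Sharing of reads with quantified pseudogene copies was small. Copies without a row, such as PRIM2BP for PRIM2, could not be assessed. Of the 46 genes 10 had processed pseudogene copies in the tables, 17 copies in all, of which 12 had no count in either library. DBF4P1 had the most, 11.3 and 9.27 estimated counts against 854 and 774 for DBF4. Counts were whole numbers in both libraries, within 0.005, for 24 of the 46 genes, and the posterior SD of the count was at most 1.13% of the count. Exons of 18 of the genes overlapped exons of another gene with a row in the tables, among them FEN1 with FADS2 on the same strand and RPA1 with SMYD4 on the opposite strand, and single values of these genes are uncertain to that extent. In replicate 1 the TPM of 7 genes lay above its own interval, in replicate 2 that of 6 genes, and 6 of them, PCNA and MCM6 included, did so in both.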

How the data were processed

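Poly(A)+ RNA of HEK293T cells was sequenced in 2 libraries prepared with a NEBNext Ultra II kit. Per the submitters' processing notes, Trimmomatic 0.36, STAR 2.6.1c and RSEM 1.3.1 were used. The study's methods name featureCounts with an Ensembl annotation of GRCh37, whereas the columns of the tables are those of RSEM. Estimated counts were deposited by the authors per gene, with shared reads divided among genes. The authors also deposited TPM and FPKM, which divide the reads by transcript length. Posterior SDs and interval bounds are scores deposited by the authors. A table of pooled reads was not used.

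Gene names, coordinates and canonical transcripts came from GENCODE release 44 mapped to GRCh37, which matched 96.1% of 57736 identifiers. The 46 genes and the other lists were chosen with earlier results of these data known. All genes named are members of these lists or of the overlap and pseudogene tables. Examples are the highest, the lowest and the called members, with the further subunits of polymerases delta and epsilon. Ratios are 2 to the mean log2 ratio of the replicates. Counts, rounded, were scaled with TMM in edgeR 4.0.16 (R 4.3.3), with normalization factors of 1.003 and 0.997, and compared between libraries with an exact two-sided binomial test (scipy 1.17.1), adjusted by Benjamini-Hochberg over all genes with 10 or more counts in sum. On simulated data for this comparison, over 17923 genes, the test recovered 167 of 200 genes changed 1.5-fold and called 7 unchanged ones. These values describe the simulated data only, and the rate of such calls in the sequenced libraries was not tested. The edgeR exact test used a common dispersion of 0.00206, estimated from these same libraries as 1 group. Promoters came from RefSeq (GRCh38.p14), and the printed stretches were located in GRCh37 by an exact match. Alternatives were pseudocounts of 0.1 and 0.01, FPKM, other filters and backgrounds, RLE and total-count scaling, whole counts, posterior mean TPM, longer promoter windows and each replicate left out. Counts per kb of canonical transcript were added after the data were seen. A leukocyte marker of the lists is not reported here.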

Additional observations from a re-analysis of the deposited data

How the results depend on the processing

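No paired analysis was possible because both libraries belong to 1 group, with nothing to pair across. All 46 genes stayed detected under every threshold tried except a TPM of at least 20, which kept 45. The number of genes called between the libraries, 1, became 0 of 24 tested with whole counts alone (0.818% of all genes tested) and 0 under the edgeR exact test (1.21%). The difference of medians, 1.65 on the log2 scale, was 1.70 with either smaller pseudocount, 1.57 by FPKM, 2.03 with a TPM of at least 0.1 as detected, 3.22 with no filter, 2.15 against all detected genes, and 1.67 to 1.69 with a replicate left out. The median log2 ratio of the complexes, 1.36, was 1.23 in estimated counts, 1.08 in counts per kb of canonical transcript and 1.32 to 1.47 with a replicate left out. For MCM2-7 it was 2.48 by TPM, 1.298 in estimated counts, 1.18 per kb of canonical transcript and 2.44 to 2.52 with a replicate left out. The log2 ratio of CDT1 to GMNN, -0.52, turned to 0.67 in estimated counts and was -0.63 to -0.42 with a replicate left out. The log2 ratio of GINS2 to GINS4 turned to -0.25 in estimated counts, and that of RFC1 to RFC4 to -0.12 per kb of canonical transcript. The number of separate neighbours, 13, was 22 by the ranges of the replicates and 13 to 15 in a single library. E2F motifs were present in 12 genes with the 50 bases after the start, and in 9 without the first T, against 7. The length used to scale the reads differs between these scales by construction, and other causes were not tested. With 2 libraries the SD of a value is itself imprecise.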
